A study of Homo sapiens with 6 samples.

Results

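The IL-6 family of cytokines was examined at the level of its messenger RNAs in HK-2, an immortalized cell line derived from the epithelium of the human proximal tubule. Genes were taken by symbol from the deposited count table. They comprised 4 ligands (IL6, LIF, IL11 and CLCF1), 5 receptor chains (IL6R, IL6ST, OSMR, LIFR and IL11RA) and the feedback inhibitor SOCS3. Each of the 10 symbols matched 1 row of the 31831 genes in the table, and all 10 passed the filter on low counts that left 17142 genes for testing. The cells carried either a control lentivirus (HG-NC) or a lentivirus that overexpressed hnRNP-F (HG-OE), an RNA-binding protein that acts in splicing. Both groups were kept in 30 mM glucose for 72 h, so high glucose was common to all libraries and its own effect is not measured here. Each group had 3 libraries of poly(A) RNA. The study describes them as biological replicates, while the labels do not say whether they came from separate cultures, so p-values measure the spread between these libraries.

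IL-6 family cytokines are secreted proteins. Most bind a receptor chain of their own and then recruit the shared signalling chain gp130, the product of IL6ST. Receptor assembly activates JAK kinases, which phosphorylate STAT3, and STAT3 then enters the nucleus and switches on target genes. SOCS3 is one of these targets and shuts the signal down by binding gp130 and the JAKs. In the kidney, tubule cells are known both to secrete IL-6 and to receive its signal, in part through a soluble form of IL6R that other cells shed.

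The libraries held 25507595 to 29444841 counted read pairs. HNRNPF itself had 304, 319 and 311 CPM (counts scaled to library size by the TMM method of edgeR) in HG-NC replicates 1, 2 and 3, and 430.5, 452 and 423 CPM in the HG-OE replicates. It rose in HG-OE by 0.48 on the log2 scale (standard error, SE, 0.0388, with an adjusted p of 2.80e-07 from the quasi-likelihood test of edgeR). Reads of the construct and of the cell's own gene were not separated. HG-OE replicate 3 stood apart from the other libraries: 13 liver genes (ALB, APOB and others, without SERPINA1) summed to 344 CPM there. These genes summed to 13.1 CPM in HG-NC replicate 3 and to between 1.51 and 4.88 CPM in the remaining libraries. Leukocyte markers summed to 18.0 CPM in HG-OE replicate 3 and to between 6.34 and 6.90 CPM elsewhere, with PTPRC under 0.1 CPM throughout. CD14 alone gave 14.6 CPM of the sum in that library, against 2.83 to 4.84 CPM in the others. CD68, another of these markers, was lower in HG-OE (-0.67 on the log2 scale). Of 12 tubule markers, PAX8, KRT8, KRT18, CDH2 and CD24 were well expressed and differed between the groups, PAX8 lower in HG-OE (-0.51) and KRT8 (1.35), KRT18 (0.76), CD24 (0.75) and CDH2 (0.25) higher on the log2 scale. In HG-OE replicate 3, KRT8 was at 983 CPM, against 629 and 653 CPM in the other HG-OE libraries, and CDH1 was at 13.1 CPM, against at most 0.343 CPM in any other library. The part of these differences in the results for the family was not tested. LRP2 and AQP1, defining genes of the proximal tubule, stayed under 0.6 CPM in every library. In bulk RNA, a lower level per cell cannot be told apart from fewer cells that express a gene.

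At an adjusted p under 0.05, 5 of the 10 genes fell in HG-OE (IL6, IL11, CLCF1, IL6ST and SOCS3), 3 rose (IL6R, LIFR and IL11RA), and LIF and OSMR did not pass the test. The calls of IL11, LIFR and IL11RA depended on the setting, and only 1 gene rose without HG-NC replicate 2 or with limma on log2(FPKM + 1). Across all genes tested, 51.8% passed it, 25.9% higher and 25.9% lower, so 8 of 10 is read against a high background. At the further requirement of a 2-fold change, which defines a differentially expressed gene (DEG), only IL6 passed, against 5.82% of all genes (3.69% higher and 2.13% lower). The HG-NC and HG-OE libraries did not overlap for 6 of the 10 genes and for 59.0% of all genes. For the 10 genes the log2 fold changes had a median of -0.12, and for all genes of 0.011.

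**Figure D1:**
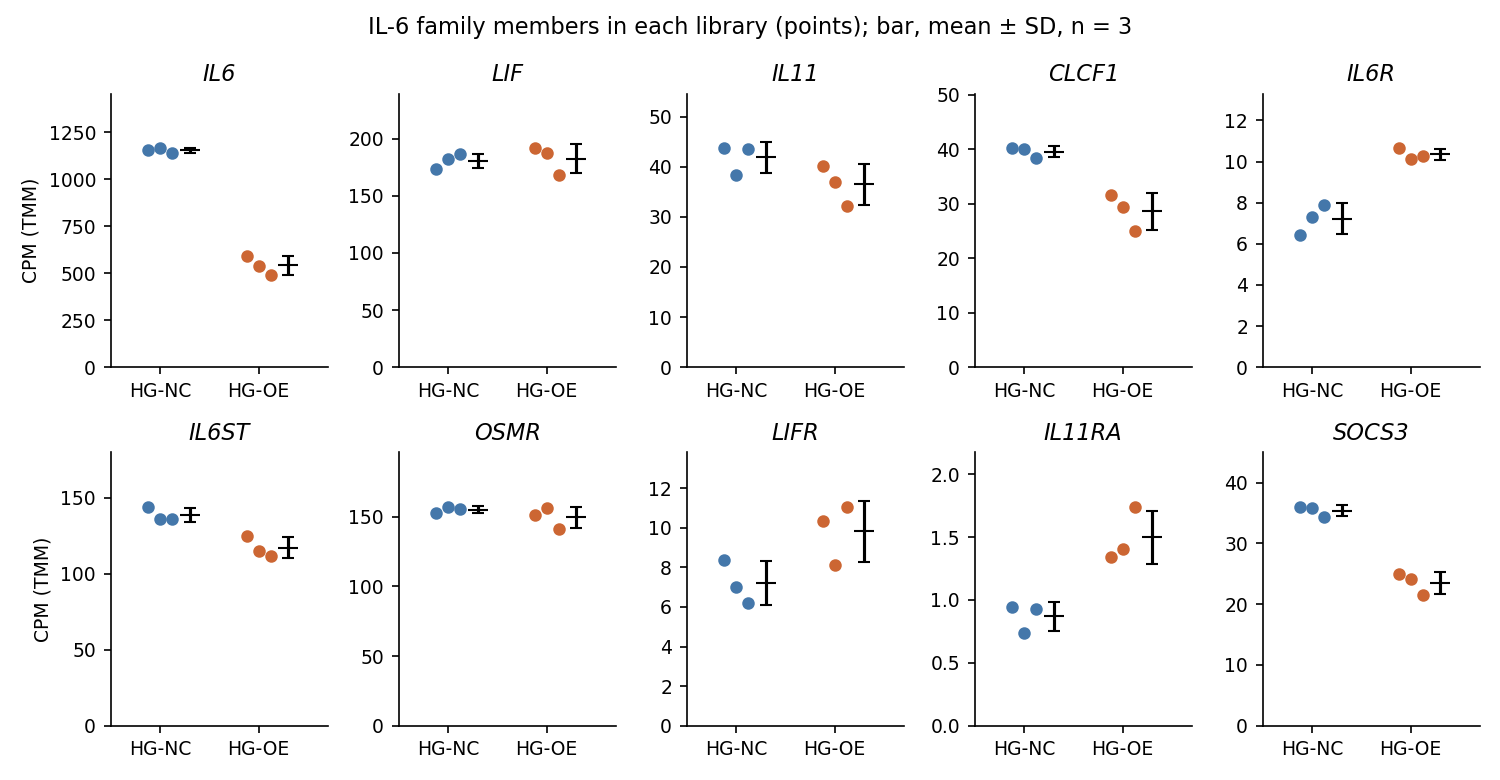
Expression in CPM (vertical axes, each from 0) of the 10 genes in each HG-NC (blue) and HG-OE (orange) library, with the mean and SD of 3 libraries beside the points. The IL6 points lie between 1139 and 1165 CPM in HG-NC and between 491 and 593 CPM in HG-OE, whereas those of LIF and OSMR overlap.

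IL6 encodes interleukin-6 (ENSG00000136244.12, chromosome 7 of GRCh38, 22725884 to 22732002, plus strand). Its level was 1156, 1165 and 1139 CPM in HG-NC replicates 1, 2 and 3, from 29401, 31530 and 31846 read pairs. In the HG-OE replicates it was 593, 539.9 and 491 CPM, from 17198, 15719 and 14368 read pairs. Every HG-OE library was thus far below every HG-NC library, and the lowest value was that of HG-OE replicate 3. The log2 fold change was -1.09 (SE 0.0541, 95% interval -1.21 to -0.98, edgeR adjusted p = 3.91e-09), or 0.469 times the HG-NC level. An exact two-sided permutation test gave p = 0.1, the smallest that 3 libraries against 3 allow. Without HG-OE replicate 3 the log2 fold change was -1.03 (adjusted p = 1.32e-29), and IL6 remained a DEG under all 15 other settings tried. Around IL6, the 64 well-counted genes up to 10 Mb away had a median of -0.05 on the same scale, and relative to them IL6 was at -1.04. Whether single genes near IL6 fell with it was not tested.

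The study also assayed IL6 by PCR, and its primers are printed to show which part of the transcript they read. Both lie in exon 4 of the canonical transcript and match all 9 annotated IL6 transcripts (GENCODE 44), the forward primer at 22729531 to 22729552 and the reverse primer at 22729595 to 22729614 on chromosome 7.
IL6-F: aatcatcactggtcttttggag
IL6-R: gctctggcttgttcctcact

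The sequence before the RefSeq start site of IL6 is shown because IL6 was the one DEG among the 10 genes and transcription of IL6 through NF-kB is textbook knowledge. It covers chr7:22726950-22727146 of GRCh38.p14 on the plus strand, and the last 53 bases before the start site are left off because exons of other IL6 transcripts cover them. Capitals mark a match to the NF-kB consensus whose first base lies at -73 from the start site.
IL6 upstream: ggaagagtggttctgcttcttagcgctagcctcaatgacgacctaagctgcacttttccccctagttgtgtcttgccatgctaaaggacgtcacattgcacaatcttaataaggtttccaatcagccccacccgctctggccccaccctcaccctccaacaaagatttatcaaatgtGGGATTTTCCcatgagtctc

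LIF encodes leukaemia inhibitory factor (ENSG00000128342.5, chromosome 22, 30240453 to 30246759), which signals through LIFR and gp130. It had 174, 182 and 186 CPM in the HG-NC replicates and 192, 188 and 168 CPM in the HG-OE replicates. The groups overlapped, with the highest and the lowest value both in HG-OE. The log2 fold change was 0.02 (SE 0.0502, 95% interval -0.09 to 0.12, edgeR adjusted p = 0.814), so a change beyond 1.09-fold in either direction lay outside the interval. LIF sits among 180 well-counted genes with a median log2 fold change of 0.29, and relative to that median its own value was -0.28.

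IL11 encodes interleukin-11 (ENSG00000095752.7, chromosome 19, 55364382 to 55370463), a ligand known for its part in fibrosis. Its level was 43.7, 38.3 and 43.6 CPM in HG-NC and 40.2, 37.0 and 32.2 CPM in HG-OE. HG-NC replicate 2 lay among the HG-OE libraries, so the groups overlapped. The log2 fold change was -0.20 (SE 0.0779, edgeR adjusted p = 0.0456), at the edge of the threshold. The call was kept in 6 of 15 other settings. It was lost when any of HG-NC replicates 1 and 3 or HG-OE replicates 2 and 3 was left out, with -0.12 (adjusted p = 0.115) without HG-OE replicate 3.

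The sequence before the start site of IL11 is set beside that of IL6 as a second ligand with a different element. It covers chr19:55370464-55370713 of GRCh38.p14 and reads on the minus strand. Capitals mark a match to the AP-1 element TGANTCA, whose first base lies at -96.
IL11 upstream: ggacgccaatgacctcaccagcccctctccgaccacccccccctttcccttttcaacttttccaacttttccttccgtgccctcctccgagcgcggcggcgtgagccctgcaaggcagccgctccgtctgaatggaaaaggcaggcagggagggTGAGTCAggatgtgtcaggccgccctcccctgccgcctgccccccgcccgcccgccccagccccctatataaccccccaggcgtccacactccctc

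RefSeq start-site windows of 300 bases, from 250 before to 50 after the start, were at hand for 8 of the 10 genes. LIF and CLCF1 had none. The 8 genes had 12 windows together, as LIFR, IL11RA and SOCS3 had more than a single window. Matches below are given per gene and the background shares per window, so they are not directly comparable. Both strands were searched for the NF-kB consensus, for the STAT element TTCNNNGAA and for the AP-1 element TGANTCA. The NF-kB consensus was found in a window of IL6, IL6ST and IL11RA, and 11.3% of 35116 windows held it. The STAT element was found for LIFR alone, in 7.66% of windows, and the AP-1 element for IL11, IL6R and OSMR, in 7.71% of windows. The windows of SOCS3 held none of these letters. They run from 78359618 to 78359917 and from 78360876 to 78361175 on chromosome 17. The annotated start of SOCS3, at 78360077 on the minus strand, lies between them, so the sequence just before it was not searched. Of the genes with the NF-kB consensus, IL6 and IL6ST fell and IL11RA rose. The call of IL11RA, from 20 to 51 read pairs, was kept in 8 of 15 other settings. A link between these matches and the changes was not tested.

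CLCF1 encodes cardiotrophin-like cytokine factor 1 (ENSG00000175505.11, chromosome 11, 67364168 to 67374177), a ligand of gp130 and LIFR. It had 40.2, 40.0 and 38.4 CPM in HG-NC and 31.5, 29.3 and 24.9 CPM in HG-OE. All HG-OE libraries were below all HG-NC libraries. CLCF1 fell, with a log2 fold change of -0.47 (SE 0.0742, edgeR adjusted p = 1.35e-04), or 0.724 times the HG-NC level. CLCF1 kept its call in all 15 other settings, and without HG-OE replicate 3, the lowest library, the value was -0.38 (adjusted p = 1.33e-06).

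IL6R encodes the receptor chain that binds IL-6 (ENSG00000160712.13, chromosome 1, 154405193 to 154469450). Its level was low, at 6.41, 7.32 and 7.91 CPM in HG-NC and 10.6, 10.1 and 10.3 CPM in HG-OE. The 3 HG-OE libraries lay close together above all HG-NC libraries. IL6R rose, with a log2 fold change of 0.52 (SE 0.106, edgeR adjusted p = 9.86e-04), or 1.43 times the HG-NC level. This is the direction opposite to that of its ligand. IL6R kept its call in all 15 other settings, although on the log2(FPKM + 1) scale, which understates changes of low genes, the value was 0.28.

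IL6ST encodes gp130, the signalling chain that the products of IL6, LIF, IL11 and CLCF1 share (ENSG00000134352.20, chromosome 5, 55935095 to 55995022). It had 144, 136 and 136 CPM in HG-NC and 125, 115 and 111 CPM in HG-OE. The groups did not overlap, and the fall was small, with a log2 fold change of -0.24 (SE 0.0480, edgeR adjusted p = 7.53e-04) or 0.844 times the HG-NC level. IL6ST kept its call in all 15 other settings. For the 39 well-counted genes up to 10 Mb away the median was -0.19, and relative to them IL6ST was at -0.06.

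OSMR encodes the oncostatin M receptor chain (ENSG00000145623.13, chromosome 5, 38845858 to 38945596). It had 152, 157 and 155 CPM in HG-NC and 151, 156 and 141 CPM in HG-OE. The groups overlapped, and HG-OE replicate 3 was the lowest library. The log2 fold change was -0.05 (SE 0.0434, 95% interval -0.14 to 0.04, edgeR adjusted p = 0.355), and no other setting brought it past the threshold.

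The study designed PCR primers for 2 splice forms of OSMR, shown here because the counts per gene add these forms together. The shared forward primer lies in exon 11 (chromosome 5, 38919010 to 38919027). The reverse primer OSMR-M-R crosses the junction of exons 11 and 12 in the canonical transcript (its match runs from 38919053 to 38921624, the intron included), and OSMR-AS-R crosses another junction, in 1 of the 5 annotated transcripts (38919053 to 38919216). The splice forms were not analysed here.
OSMR-M/AS-F: tgtgggtgcttctcctgc
OSMR-M-R: tcaacctctttgttttcggg
OSMR-AS-R: gttgacacactgttttcggg

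LIFR encodes the chain that LIF binds and that also serves CLCF1 (ENSG00000113594.10, chromosome 5, 38474668 to 38608354). It had 8.38, 7.02 and 6.19 CPM in HG-NC and 10.3, 8.11 and 11.1 CPM in HG-OE. HG-OE replicate 2 lay below HG-NC replicate 1, so the groups overlapped. LIFR rose by the test, with a log2 fold change of 0.45 (SE 0.139, edgeR adjusted p = 0.0144). The call was kept in 9 of 15 other settings and lost without HG-NC replicate 2 (0.44, adjusted p = 0.0593) and without HG-NC replicate 3 (0.36, adjusted p = 0.0808). Relative to its 44 neighbours within 10 Mb, whose median was 0.20, LIFR was at 0.25.

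IL11RA encodes the chain that binds IL-11 (ENSG00000137070.18, chromosome 9, 34652162 to 34661902). It was the least counted of the 10 genes, with 24, 20 and 26 read pairs in HG-NC and 39, 41 and 51 in HG-OE. All HG-OE libraries were above all HG-NC libraries. IL11RA rose by the test, with a log2 fold change of 0.78 (SE 0.251, 95% interval 0.24 to 1.32, edgeR adjusted p = 0.0185), the widest interval of the 10 genes. The call was kept in 8 of 15 other settings and lost without HG-NC replicate 2 (0.68, adjusted p = 0.0653), without HG-OE replicate 3 (0.66, adjusted p = 0.0625) and with the Wald test of DESeq2 (adjusted p = 0.111).

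SOCS3 encodes the inhibitor that blocks gp130 signalling (ENSG00000184557.4, chromosome 17, 78356778 to 78360077). It had 36.0, 35.8 and 34.3 CPM in HG-NC and 24.9, 24.1 and 21.4 CPM in HG-OE. The groups lay well apart. SOCS3 fell, with a log2 fold change of -0.59 (SE 0.0650, edgeR adjusted p = 5.15e-06), or 0.664 times the HG-NC level. SOCS3 kept its call in all 15 other settings, and without HG-OE replicate 3 the value was -0.53 (adjusted p = 2.02e-09). Of the 10 genes, 7 had their lowest HG-OE value in replicate 3. Without that library the log2 fold change was 0.07 for LIF, -0.21 for IL6ST and -0.01 for OSMR. For IL6, IL11, CLCF1 and SOCS3 the values without it are given with each gene.

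**Figure D2:**
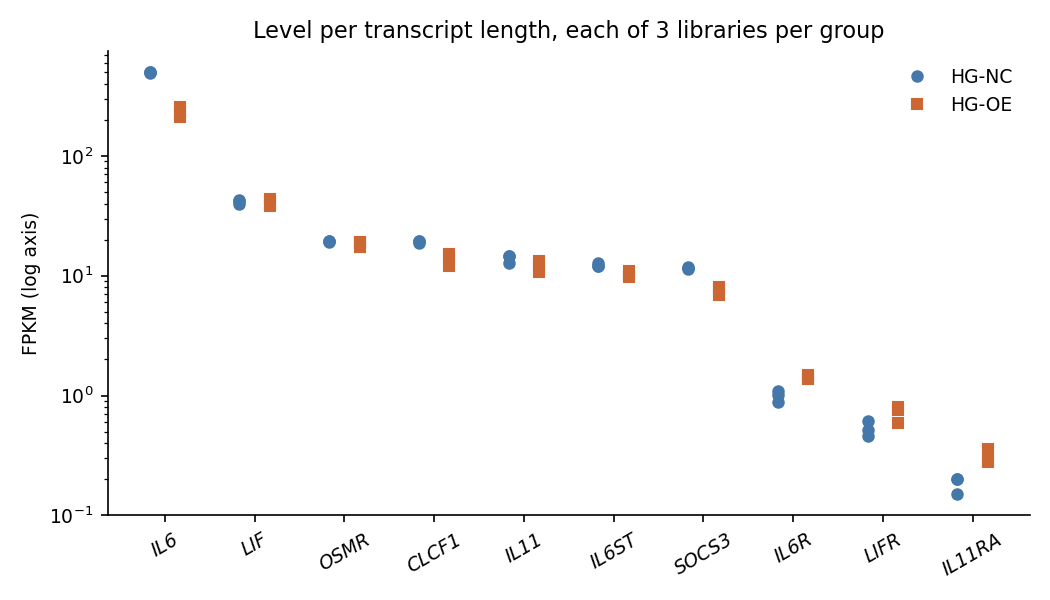
Level per transcript length (FPKM, log axis) of the 10 genes in each HG-NC (blue circles) and HG-OE (orange squares) library, ordered by mean. IL6 lies at 495 to 503 in HG-NC and 209.8 to 255 in HG-OE, above all others, and IL6R, LIFR and IL11RA lie under 1.5 in every library.

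Levels of different genes were compared per transcript length, in the unit FPKM, which divides fragments by transcript length and library size. The order was the same in both groups: IL6, LIF, OSMR, CLCF1, IL11, IL6ST, SOCS3, IL6R, LIFR and IL11RA. IL6 averaged 499 ± 4.03 FPKM in HG-NC and 231 ± 22.7 FPKM in HG-OE (SD, n = 3), and LIF, next in order, was at 41.7 FPKM in both. Neighbours in the middle of the order were close. OSMR and CLCF1 overlapped in HG-NC, at 19.0 to 19.6 and 18.8 to 19.5 FPKM, and were separate in HG-OE, at 17.4 to 19.2 and 12.01 to 15.3 FPKM. IL11 overlapped with CLCF1 and with IL6ST in HG-OE but not in HG-NC, and no other neighbours in the order overlapped. The chains IL6R, LIFR and IL11RA were scarce, with IL6R at 1.00 ± 0.105 FPKM in HG-NC and 1.42 ± 0.0458 FPKM in HG-OE. The shared chain IL6ST was 12.3 times as abundant as IL6R per length in HG-NC and 7.21 times in HG-OE.

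Ratios between ligands and chains were compared within each library, for 12 pairs. With 3 libraries against 3, the smallest exact permutation p is 0.1, or 0.12 after adjustment over the 12 pairs, so none could pass 0.05 and the differences are given by their size. IL6 over IL6R changed most, by -1.62 on the log2 CPM scale (SE 0.115), as the ligand fell and the chain rose. In FPKM the mean IL6 level was 499 times that of IL6R in HG-NC and 163 times in HG-OE. IL6 over LIF changed by -1.11 (SE 0.0477), a ratio of 6.39 in HG-NC and 2.96 in HG-OE in CPM. The difference between IL6 and CLCF1 was smaller, at -0.62, and so was that between IL6 and SOCS3, at -0.50, yet the libraries of the groups did not overlap for either ratio. IL11 over IL11RA changed by -0.98 and LIFR over IL6ST by 0.69, likewise without overlap. For LIF over LIFR and OSMR over LIFR the groups overlapped (exact permutation p = 0.2 for each).

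**Figure D3:**
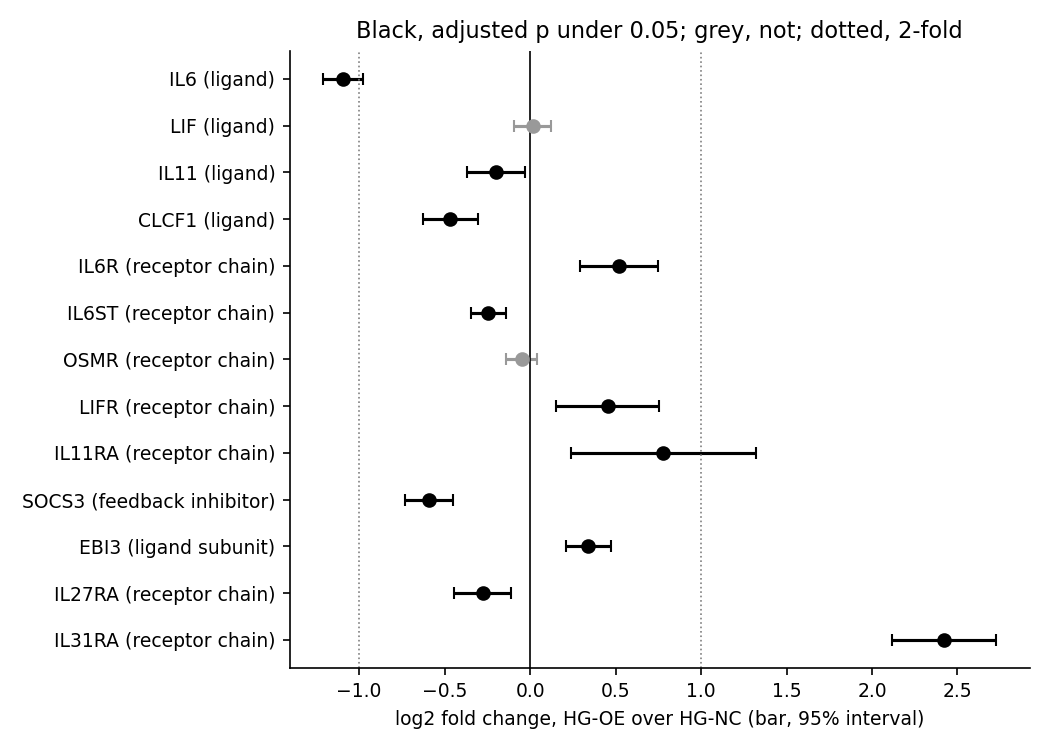
Log2 fold change, HG-OE over HG-NC, with its 95% interval for the 10 genes and 3 other family genes. Black points passed an adjusted p of 0.05, and of all 13 only IL6 (-1.09) and IL31RA (2.42) lie beyond the dotted 2-fold lines.

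Other family ligands were mostly silent. EBI3, the shared subunit of interleukin-27 and interleukin-35, had 53.2, 53.4 and 52.8 CPM in HG-NC and 70.5, 71.3 and 60.1 CPM in HG-OE. It rose without overlap, with a log2 fold change of 0.34 (SE 0.0617, edgeR adjusted p = 3.86e-04). OSM, the ligand of OSMR, had 4, 0 and 2 read pairs in HG-NC and 0 in each HG-OE library, and CNTF had 5 to 10 in each library.

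IL31RA, a receptor chain that pairs with OSMR to bind interleukin-31, showed the widest difference in the family. It had 50, 61 and 81 read pairs in HG-NC (1.97, 2.25 and 2.90 CPM) and 400, 373 and 342 in HG-OE (13.8, 12.8 and 11.7 CPM). Every HG-OE library held over 4 times the CPM of any HG-NC library. The log2 fold change was 2.42 (SE 0.142, edgeR adjusted p = 1.72e-08), or 5.35-fold, and it was 2.48 without HG-OE replicate 3. IL31RA (chromosome 5, 55851357 to 55922854) ends 12240 bases from IL6ST, which fell, and the median of its own neighbours was -0.21. Its ligand IL31 had at most 1 read pair in any library. IL27RA, the chain for interleukin-27, fell (-0.28, adjusted p = 0.00789, edgeR), and CNTFR was near 0.

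**Figure D4:**
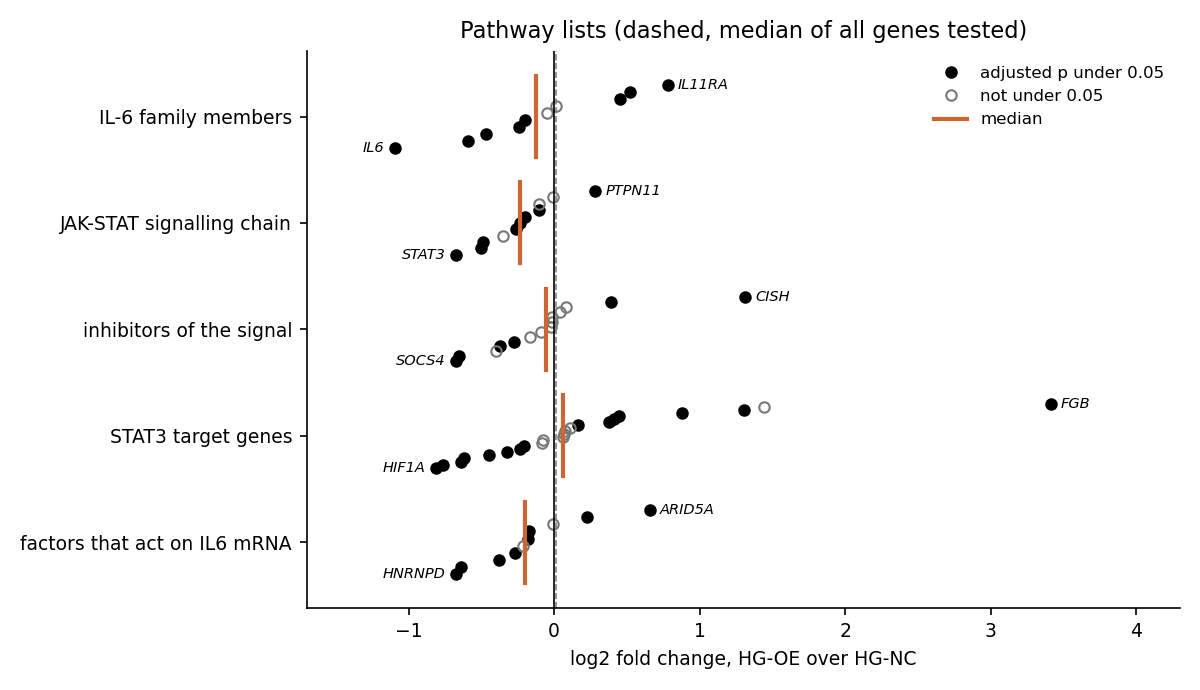
Log2 fold change, HG-OE over HG-NC, of each gene tested in the family and in 4 lists of its pathway, with filled points for an adjusted p under 0.05, an orange line for the list's median and a dashed line for the median of all genes (0.011). The JAK-STAT list has its median at -0.24 and PTPN11 as its 1 gene that rose.

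In the JAK-STAT signalling chain, 7 of 11 genes fell and 1 rose, with a median log2 fold change of -0.24. Over all genes tested, 25.9% were called each way and the median was 0.011. STAT3, the main transcription factor of the pathway, had 190.3, 191 and 187 CPM in HG-NC and 122, 124 and 111 CPM in HG-OE. It fell by 0.67 on the log2 scale (SE 0.0456, edgeR adjusted p = 6.48e-08), the widest change of the list. STAT5A (-0.50), STAT5B (-0.49) and the adaptor GRB2 (-0.26) also fell. The kinases TYK2 (-0.20) and JAK1 (-0.11, adjusted p = 0.0478, edgeR) fell slightly, and JAK1 was no longer called without HG-OE replicate 3 (-0.06, adjusted p = 0.133). PTPN11, the phosphatase SHP2 that docks on gp130, rose by the test (0.28, adjusted p = 4.85e-05, edgeR). JAK2, GAB1 and SOS1 did not pass.

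Among 14 other inhibitors of the signal, 2 rose, 4 fell and 8 did not pass, with a median of -0.06. The share called was below the 51.8% of all genes, and the share that fell was near the 25.9% of all genes. SOCS4 (-0.67) and SOCS6 (-0.65) fell by amounts near that of SOCS3, and SOCS7 (-0.37) and PIAS1 (-0.28) fell as well. CISH, a STAT5 target that restrains STAT5, had 2.16, 1.37 and 2.11 CPM in HG-NC and 5.65, 5.53 and 2.87 CPM in HG-OE, a DEG at 1.32 (adjusted p = 6.99e-04, edgeR). HG-OE replicate 3 was nearest to HG-NC for CISH, and without it the value was 1.57. SOCS2 rose at the edge of the threshold (0.39, adjusted p = 0.0445, edgeR) and not without HG-OE replicate 3 (0.30, adjusted p = 0.103). PTPN1, the most counted gene of the list, had a value of -0.01. The proteases that shed IL6R from the cell surface both fell, ADAM17 by 0.50 (adjusted p = 3.26e-06, edgeR) and ADAM10 by 0.13 (adjusted p = 0.0235, edgeR) on the log2 scale.

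Of 30 genes known as STAT3 targets, 22 passed the filter on low counts, of which 7 rose, 8 fell and 7 did not pass, with a median of 0.06. Over all genes, 25.9% were called each way. HIF1A, the most counted, had 1129.6 to 1166 CPM in HG-NC and 618 to 702 CPM in HG-OE and fell (-0.81, adjusted p = 8.70e-09, edgeR). BCL6 (-0.76), ICAM1 (-0.64) and MYC (-0.62) followed. Among those that rose, MUC1, a membrane mucin, was a DEG at 1.31 (adjusted p = 8.10e-08, edgeR), with 6.33 to 6.98 CPM in HG-NC and 15.5 to 17.1 CPM in HG-OE. CCND1, which encodes cyclin D1, rose by 0.45, and SAA2, an acute phase protein whose reads cannot be fully parted from its near copy SAA1, by 0.88. FGB, a fibrinogen chain, had 33.9 CPM in HG-OE replicate 3, the library with the most liver RNAs, and 4.27 and 4.6 CPM in the other HG-OE libraries. Its log2 fold change was 3.41 with that library and 1.73 (adjusted p = 1.04e-09, edgeR) without it, above 0.944 to 1.97 CPM in HG-NC.

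Of 10 genes that encode proteins known to act on IL6 mRNA, 6 fell and 2 rose at the RNA level, with a median of -0.20, against 25.9% of all genes called each way. ARID5A, which stabilizes IL6 mRNA, had 9.32, 9.09 and 11.1 CPM in HG-NC and 14.7, 16.1 and 15.8 CPM in HG-OE. It rose (0.66, adjusted p = 6.31e-05, edgeR), whereas IL6 itself fell. ZC3H12A, the nuclease regnase-1 that cuts IL6 mRNA, rose by 0.23 (adjusted p = 0.00751, edgeR), with HG-OE replicate 3 at the level of HG-NC replicate 2. HNRNPD, which encodes AUF1 and belongs to the same family of proteins as hnRNP-F, fell by 0.68 (adjusted p = 1.80e-08, edgeR). ZFP36L2 (-0.64), ZFP36L1 (-0.38), the most counted of the list, and RC3H1 (-0.27), which encodes roquin-1, also fell.

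The genes whose pattern over the 6 libraries was nearest to that of IL6 were RNF41, PTX3, PER3, BIRC3 and ICOSLG. The measure was the Euclidean distance between centred log2 CPM values among 11562 protein-coding genes, and it ran from 0.0770 for RNF41 to 0.131 for ICOSLG. Their log2 fold changes lay between -1.14 and -1.05, as this measure requires.

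**Figure D5:**
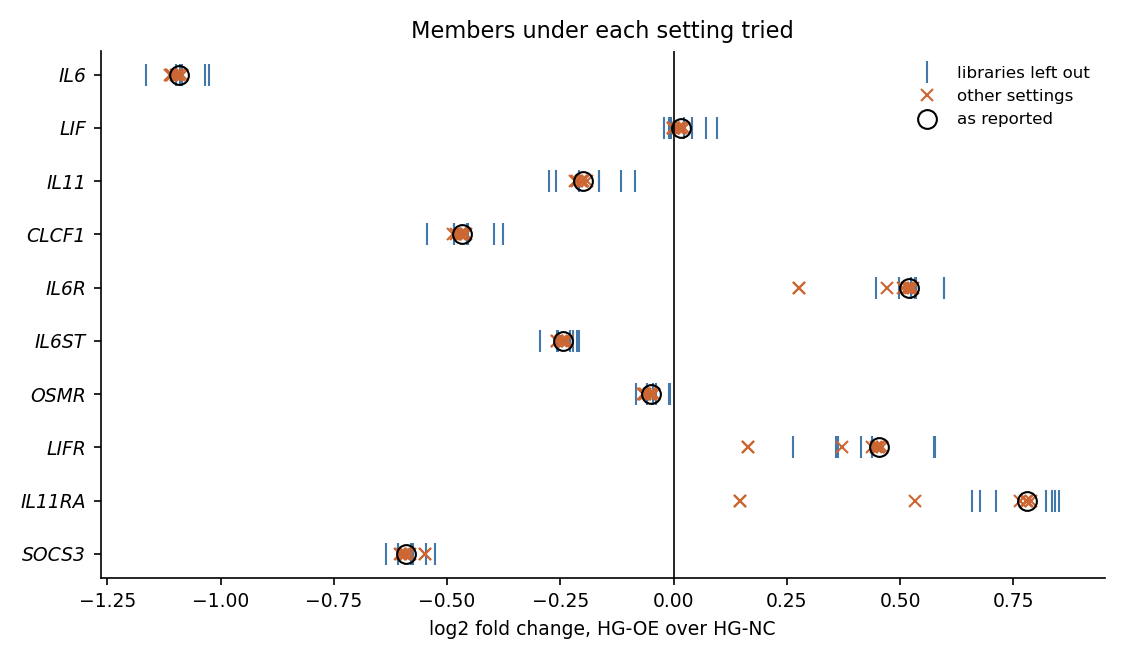
Log2 fold change, HG-OE over HG-NC, of the 10 genes as reported (circles), with libraries left out (blue bars) and under the other processing settings (orange crosses). IL6, CLCF1, SOCS3 and IL6ST stay below 0 and IL6R above 0 in every setting drawn, LIF lies on both sides of 0, and IL11RA and LIFR come closest to 0 on the log2(FPKM + 1) scale.

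IL6, CLCF1, IL6R, IL6ST and SOCS3 were called in all 15 other settings and LIF and OSMR in none. IL11, LIFR and IL11RA were called in some, so these 3 calls are the least firm of the family.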

How the data were processed

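After trimming, the authors used HISAT2 to place reads on GRCh38 and assigned uniquely mapped pairs to genes. These deposited counts show no scaling to library size, as their totals differ between libraries. The authors also deposited FPKM values made from the same reads. Whether strand was used in counting, and whether the batch correction the study names entered the counts, is not given in the sources used here.

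Libraries were grouped by their labels. Counts were tested in R 4.3.3 with edgeR 4.0.16 (TMM, default low-count filter, quasi-likelihood test) and p-values adjusted by Benjamini-Hochberg over 17142 genes. DESeq2 1.42.0 and limma 3.58.1 served as alternatives, with limma on log2(FPKM + 1) and log2(FPKM + 0.1). CPM values are counts scaled to library size. The steps were tested on simulated data. Positions are from GENCODE 44 and start-site windows from RefSeq (GRCh38.p14).

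The genes and lists were chosen with earlier results of these data known. Named from each list were genes past adjusted p of 0.05 with the largest changes, up to 4 each way, DEGs and the most counted gene. Some results are not reported here. ADAM10, CNTF, OSM, IL31, IL27RA, CNTFR, TYK2, JAK1, JAK2, GAB1 and SOS1 were named after their values were seen, where they fell outside this rule.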

Additional observations from a re-analysis of the deposited data

How the results depend on the processing

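IL6, CLCF1, IL6ST and SOCS3 stayed lower and IL6R higher past the threshold under every alternative with a test. LIF reversed to -0.28 when the median of neighbouring genes within 10 Mb was removed, and was not called either way. The count of family genes that rose, 3 as reported, was 1 with limma on log2(FPKM + 1) and on log2(FPKM + 0.1), 1 without replicate 3 of both groups (an alternative chosen after seeing the data), and 1 to 3 with single libraries left out, the 1 being without HG-NC replicate 2. The count that fell, 5 as reported, was 4 or 5 throughout. Over all genes, 632 DEGs were higher as reported, 1103 without a low-count filter, 370 with at least 10 counts in every library, and 76 and 70 with limma on log2(FPKM + 1) with and without a filter. The 365 lower DEGs became 68 in both of the latter. Rising inhibitors numbered 1 rather than 2 with DESeq2, without HG-OE replicate 3 and without replicate 3 of both groups. The 12 ratios kept their direction in all 96 values, of which those with single libraries left out are the informative part. For each ratio, the difference within replicate numbers equals the reported value by construction. The values in FPKM come from the same reads, so their direction was nearly fixed as well. Depth limits IL11RA most, at 20 to 51 read pairs.

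Replicate numbers did not pair the libraries: deviations of same-numbered libraries correlated at -0.03, 0.03 and -0.001. With the replicate number as a block, 3 family genes rose and 5 fell, and IL6 was at -1.10, LIF at 0.01, IL11 at -0.20 and IL11RA at 0.78, with no call changed.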

Other observations

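Several of the family's genes have an antisense or divergent RNA in the table, chosen here after their values were seen. SOCS3-DT, transcribed away from the SOCS3 start, had 49, 44 and 47 read pairs in HG-NC and 22, 29 and 23 in HG-OE. It fell without overlap, with a log2 fold change of -1.04 (SE 0.241, edgeR adjusted p = 0.00252), the direction of SOCS3 itself. OSMR-AS1 had 38, 29 and 31 read pairs in HG-NC and 64, 58 and 57 in HG-OE and rose without overlap (0.74, SE 0.220, edgeR adjusted p = 0.0119), while OSMR was at -0.05.

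IL6-AS1 had 72, 139 and 100 read pairs in HG-NC and 82, 83 and 55 in HG-OE, with overlap of the groups. Its log2 fold change was -0.61 (adjusted p = 0.0374, edgeR) and -0.44 (adjusted p = 0.0441) without HG-OE replicate 3. LIF-AS1 was at 0.24 (adjusted p = 0.612, edgeR). The library kit keeps strand, but whether the counting used it is not given in the sources used here. Where it did not, reads of an antisense RNA and of the gene it overlaps cannot be told apart.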
